A study of Mus musculus with 4 samples.

Results

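Penk, Areg, Fgl2, Osm and Lif encode secreted products that regulatory T cells (Tregs) can make and that act on cells of the surrounding tissue. They are 5 of the 50600 genes counted in 4 libraries of mouse Tregs. Areg, Fgl2, Osm and Lif were taken by name, and Penk was selected on its TPM values, which differed between these libraries. The spread of Penk is therefore given as a description, with no test.

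The study sequenced RNA from primary Tregs of strain C57BL/6NJ mice, numbered as replicates 1 to 4 of the same kind, with no second condition. Names in the file headers include the terms activated, sorted and 72 h, which the labels do not explain, and a protocol for differentiating CD4+ T cells is linked to the samples. No genotype, allele or agent is given in the labels; sex was not collected and age was unknown. All 4 libraries share a donor record, with no label that ties a library to an animal or a culture. The p-values below rest on these samples only. They concern either the variation of a gene between the samples or differences between genes within each sample. The spread between the samples may be partly technical.

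Tregs are CD4+ T cells that depend on the transcription factor Foxp3 and restrain immune responses. In tissues they also release factors that act on epithelium, stroma, nerves and other immune cells. Penk encodes proenkephalin, a precursor that is cut into enkephalins, which are small peptides that act on opioid receptors. Areg encodes amphiregulin, a membrane-bound ligand of the epidermal growth factor (EGF) receptor that is shed from the cell surface and is known for its part in tissue repair by mouse Tregs. Osm and Lif encode oncostatin M and leukaemia inhibitory factor, cytokines of the IL-6 family that signal through a shared receptor chain, gp130. Fgl2 encodes fibrinogen-like protein 2, which mouse Tregs can secrete as an inhibitory factor that binds Fc gamma receptors.

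The libraries held 46044354, 72147632, 94983494 and 32648138 counts in replicates 1 to 4. Levels are given as TPM, the count of a gene divided by its exon length and scaled to the same total in each library. All 10 of 10 Treg markers and all 10 of 10 T cell markers were at 1 TPM or more in every library, and Foxp3 stood at 463 ± 25.4 TPM (SD, n = 4). The library of replicate 1 stood apart in several noncoding RNAs. Gm42418, a locus that collects ribosomal RNA reads, was at 11891 TPM in replicate 1, against 1555 to 4335 TPM in the other 3. Rn7sk was at 92.9 TPM in replicate 1, against 9.02 to 14.5 TPM in the other 3, and Malat1 was at 131.5 TPM, against 42.5 to 55.2 TPM. The libraries also fell into pairs that a shared donor record does not show. Xist, an RNA of the inactive X chromosome, had 312.1 and 331.1 TPM in the first pair (replicates 1 and 2), against 0.539 and 2.38 TPM in the second pair (replicates 3 and 4). The Y-linked Eif2s3y had 0.083 and 0.132 TPM in the first pair, against 49.3 and 67.7 TPM in the second. Cells of a single animal would not usually give both patterns, and the spread below may include a difference between these pairs, which the tests do not model.

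The 5 genes covered a wide range of levels. Lif was the highest, Osm and Penk followed, Fgl2 stood just above 1 TPM, and Areg was detected by few reads. Of the 5 genes, 4 reached 1 TPM in all 4 libraries; the same threshold was met by 23.9% of all 50600 genes and by 49.1% of the 21764 protein-coding genes. In bulk RNA, fewer cells of a type and less RNA per cell cannot be told apart, so these levels do not say what share of the cells made each transcript.

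Penk (ENSMUSG00000045573.9) lies on the minus strand at chr4:4133531-4138819 of mm10, the mouse GRCm38 assembly, with 1634 bp of counted exon. Its coding sequence of 807 bp holds 7 copies of an enkephalin-coding unit in the GENCODE M21 transcript, 6 for Met-enkephalin and 1 for Leu-enkephalin. The 7 units are shown because they are what a Penk transcript supplies: several peptides per precursor. The 15 bases that code for the pentapeptide are in capitals, and the 6 bases on either side are in lower case. They were found by a search for the codons of both peptides and are printed 5′ to 3′ on the Penk strand, from chr4:4134328-4134354 for unit 1 down to chr4:4133842-4133868 for unit 7.
Met-enkephalin unit 1: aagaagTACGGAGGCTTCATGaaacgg
Met-enkephalin unit 2: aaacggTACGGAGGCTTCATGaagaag
Met-enkephalin unit 3: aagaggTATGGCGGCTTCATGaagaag
Met-enkephalin unit 4: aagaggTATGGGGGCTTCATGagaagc
Met-enkephalin unit 5: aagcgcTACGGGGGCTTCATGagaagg
Leu-enkephalin unit 6: aagaggTATGGGGGCTTCCTGaagcgc
Met-enkephalin unit 7: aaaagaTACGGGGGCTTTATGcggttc
The first 2 units overlap in their flanks, so that a single pair of codons separates them. The 7 units have 6 different coding cores, since only units 1 and 2 are identical there. A pair of codons for basic residues, where prohormone convertases cut, precedes all 7 units and follows 5 of them. Units 4 and 7 have no such pair after the core, so their label names the coded pentapeptide alone.

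Penk was at 102.8, 59.6, 50.5 and 52.0 TPM in replicates 1 to 4, from 2431, 2128, 2436 and 853 counts. Replicate 1 was the highest, replicate 2 was next, and replicates 3 and 4 lay close together. Its exact 95% counting interval in replicate 1, 98.7 to 106.9 TPM, lay above that of replicate 2, 57.1 to 62.1 TPM, which in turn lay above those of replicates 3 and 4, 48.5 to 52.6 and 48.5 to 55.6 TPM. Both libraries with high Xist were thus above both libraries with high Eif2s3y. How many of all genes separate in this way was not counted, and whether that split has a part in the level of Penk was not tested. The mean was 66.2 ± 24.7 TPM (SD, n = 4), a coefficient of variation of 37.3%, and replicate 1 held 1.90 times the mean of the other 3. Without replicate 1 the mean was 54.0 TPM. At its mean, Penk ranked 2895 of 21764 protein-coding genes, within the top 13.3%.

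The excess of Penk in replicate 1 was present under each scaling tried. The log2 ratio of replicate 1 to the mean of the other 3 libraries was 0.92 on the log2(TPM + 1) scale and lay between 0.93 and 0.96 under the other scalings and the smaller pseudocount. In trimmed-mean (TMM) scaled CPM, 20 of 13494 genes, or 0.148%, had a ratio at or above that of Penk in replicate 1. Of 2261 genes whose mean lay within 1.5-fold of the level of Penk, 6 had a larger coefficient of variation, and the median over those genes was 6.93%. Both counts describe the spread that chose the gene. The same library was the highest in Gm42418, Rn7sk and Malat1, and whether Penk moved with them for a shared reason was not tested.

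**Figure D1:**
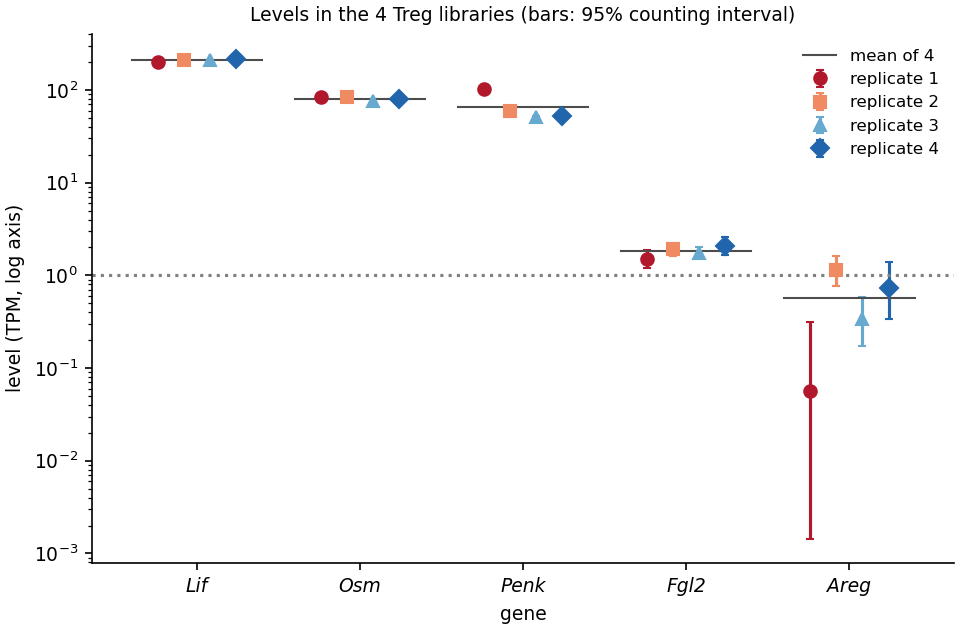
TPM of Penk, Areg, Fgl2, Osm and Lif in each of the 4 Treg libraries, with 95% exact counting intervals of the single libraries and a bar at the mean. Lif and Osm lie within a narrow band, Penk is at 102.8 TPM in replicate 1 and at 50.5 to 59.6 TPM in the others, and Areg ranges from 0.0569 to 1.13 TPM.

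Several genes are needed to make and remove an enkephalin, and their transcripts were unevenly represented. Of the other opioid precursors, Pomc was at 3.72, 3.26, 2.16 and 3.85 TPM in replicates 1 to 4, and Pdyn and Pnoc, the precursors of dynorphin and nociceptin, had no count in any library. Pomc was the lower of the 2 detected precursors in every library and did not share the high value of Penk in replicate 1. Of 13 genes for processing, 6 were at 1 TPM or more in every library. Furin, a convertase of the secretory pathway, stood at 310 ± 13.4 TPM, and Pcsk7, a related convertase, averaged 34.0 TPM (n = 4 for both). Cpd and Cpe, carboxypeptidases that trim the basic residues left after cutting, stood at 199.5 ± 21.7 and 11.0 ± 1.13 TPM. The neuroendocrine convertase genes were low: Pcsk1 averaged 0.627 TPM and Pcsk2 had no count in any library.

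Of 7 genes for the breakdown of enkephalins, 4 passed 1 TPM in every library. Dpp3, a dipeptidyl peptidase that cleaves enkephalins, was at 159 ± 7.47 TPM, and Npepps, a cytosolic aminopeptidase, at 73.4 ± 10.4 TPM (SD, n = 4). The membrane peptidases best known for this at synapses were low or absent here, with no count for Mme, which encodes neprilysin, or Ace, and a mean of 0.445 TPM for Anpep. The classical opioid receptors were near the limit of detection. Oprd1 and Oprk1 had no count, and Oprm1 had 34 counts over the 4 libraries, a mean of 0.0631 TPM. Ogfr, a nuclear membrane protein that binds Met-enkephalin and is unrelated to the classical receptors, was at 193.8, 162.2, 164.0 and 158.8 TPM in replicates 1 to 4. It was highest in replicate 1, as Penk was, by a smaller margin.

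**Figure D2:**
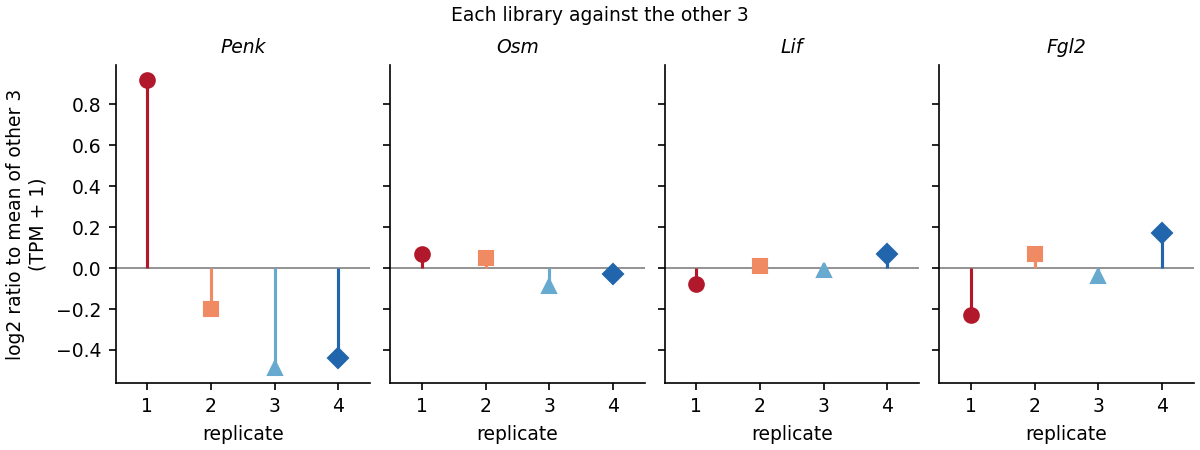
Log2 ratio of each library to the mean of the other 3 on the log2(TPM + 1) scale for Penk, Osm, Lif and Fgl2. Penk in replicate 1 lies at 0.92, Osm and Lif stay close to 0, and Fgl2 lies at -0.23 in replicate 1. Areg, with few counts, is not drawn.

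Lif (ENSMUSG00000034394.14, chr11:4257557-4272514, plus strand) and Osm (ENSMUSG00000058755.3, chr11:4236420-4241026, plus strand) are neighbours on chromosome 11, with 16530 bp between the end of Osm and the start of Lif. Lif was at 201.7, 211.9, 209.6 and 218.1 TPM in replicates 1 to 4, a mean of 210.3 ± 6.76 TPM (SD, n = 4) that ranked 803 of 21764 protein-coding genes. Osm was at 83.9, 83.1, 76.9 and 79.6 TPM, a mean of 80.9 ± 3.23 TPM that ranked 2409. Neither cytokine had a library that stood apart: replicate 1 was the lowest for Lif and the highest for Osm, in both cases by a few percent. Osm, as Penk, was higher in both libraries with high Xist than in both with high Eif2s3y, whereas the values of Lif overlapped between those pairs; this was not tested.

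The coefficient of variation was 3.21% for Lif and 4.00% for Osm. Among genes within 1.5-fold of their level, 84.8% of 847 genes varied more than Lif, and 80.1% of 2040 genes varied more than Osm. In the edgeR goodness-of-fit test of variation between the 4 libraries beyond the dispersion trend, the adjusted p was 1.00 for Lif, for Osm and for Fgl2. Of the 3 genes other than Penk that passed the filter on low counts, 0 were called, against 0.378% of the 13494 genes tested, or 51 genes. Unadjusted p-values from edgeR were 0.952 for Lif, 0.844 for Osm and 0.920 for Fgl2, while 805 of all genes had an unadjusted p under 0.05; with the DESeq2 dispersion trend 61 genes and 0 of the 3 were called.

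Lif exceeded Osm in every library, by 2.40, 2.55, 2.73 and 2.74 times in TPM. The difference was 1.37 ± 0.09 in log2(TPM + 1) (SD, n = 4). Its exact two-sided sign-flip permutation p was 0.13, unadjusted, the smallest that 4 libraries allow. An adjusted p is not given, since the adjustment ran over pairs that include Penk. No pair can pass 0.05 in this design. Differences from Penk are given with no p, since its values across libraries chose it. Osm was the higher of that pair in 3 of 4 libraries and Penk in replicate 1, with a difference Osm minus Penk of 0.35 ± 0.43, so their order rests on the library. Penk exceeded Fgl2 by 4.52 ± 0.58 and Fgl2 exceeded Areg by 0.89 ± 0.34, both in 4 of 4 libraries. Fgl2 and Areg lie near the 1 TPM that is added, which shrinks their log2 difference. With a pseudocount of 0.1 it was 1.88. In TPM, Fgl2 was 26.3, 1.7, 5.3 and 2.8 times Areg in replicates 1 to 4, where replicate 1 rests on 1 count of Areg.

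Of the 9 ligands of the IL-6 family, 3 were at 1 TPM or more in every library: Lif, Osm and Clcf1. Clcf1, cardiotrophin-like cytokine factor 1, was at 6.10, 13.8, 13.1 and 11.4 TPM in replicates 1 to 4 and was lowest in replicate 1. Il6 had no count in any library, and Il11 was counted in replicate 3 alone, with 26 counts. On the receptor side, Il6st, which encodes gp130, was at 20.4 ± 1.98 TPM and Il6ra, the IL-6 receptor, at 55.7 ± 5.37 TPM (SD, n = 4). The chains that pair with gp130 for these cytokines were close to absent: Lifr had 20 counts over the 4 libraries, a mean of 0.0252 TPM, and Osmr had no count, where 3 counts would correspond to 0.00839 to 0.0247 TPM. The ligands Lif and Osm were read together with the shared chain, and their own receptor chains had few or no reads.

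**Figure D3:**
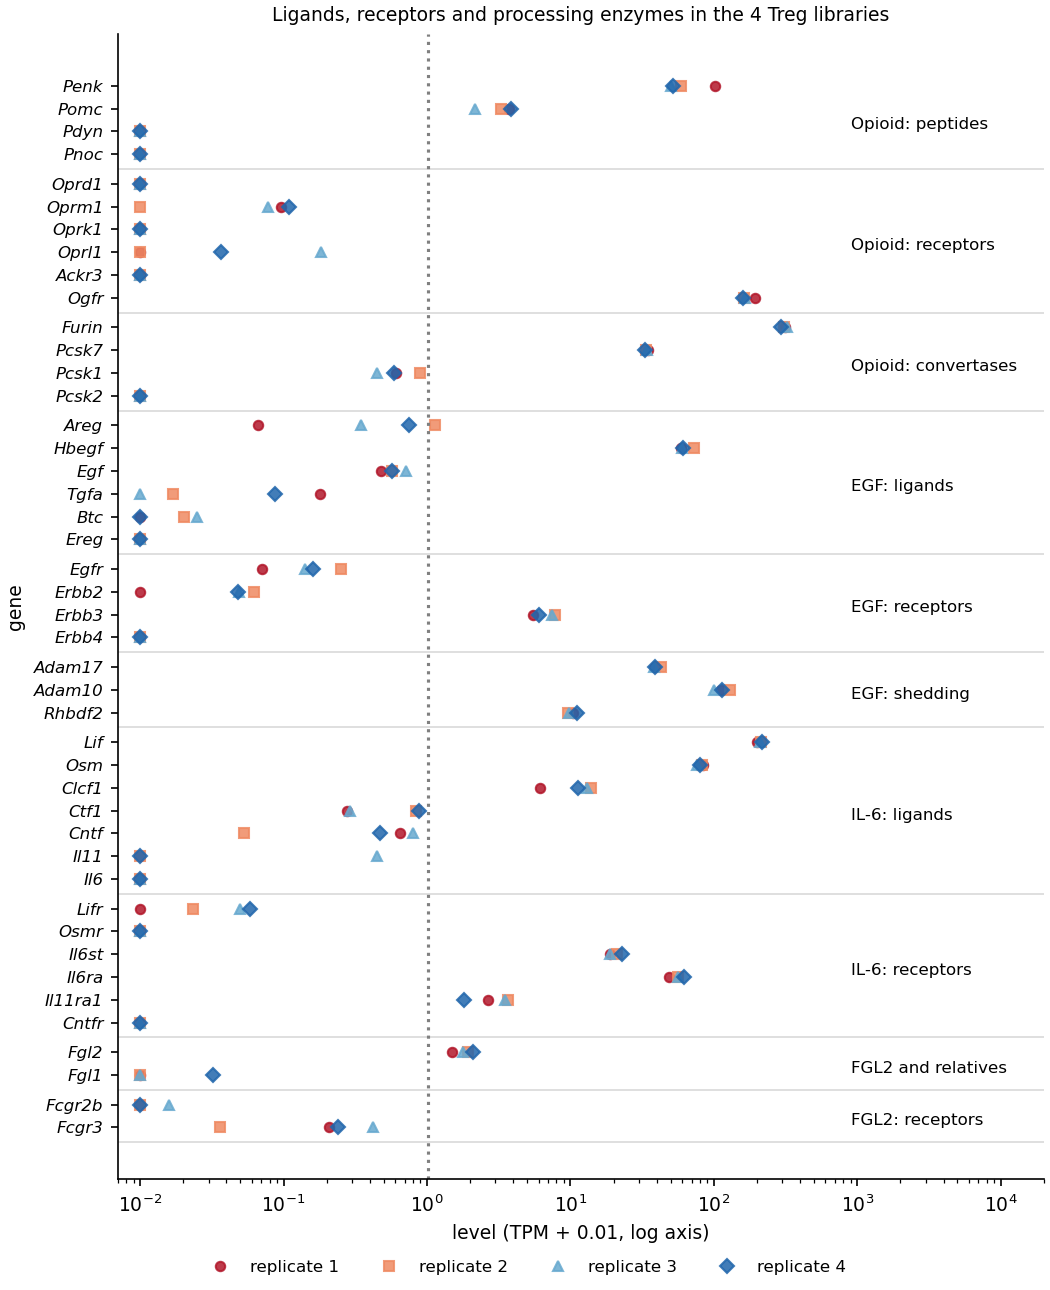
TPM plus 0.01 on a log axis for ligands, receptors, convertases and shedding enzymes in each Treg library, with a dotted line at 1 TPM. The ligand genes Penk, Lif, Osm and Hbegf lie above the line, and Oprd1, Osmr, Erbb4 and Pcsk2 sit at the left edge, with no count in any library.

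Fgl2 (ENSMUSG00000039899.5, chr5:21372642-21378374, plus strand) was at 1.495, 1.92, 1.76 and 2.08 TPM in replicates 1 to 4, from 82, 159, 197 and 79 counts. All 4 values lay just above 1 TPM and their 95% counting intervals overlapped, from 1.19 to 1.86 TPM in replicate 1 up to 1.64 to 2.59 TPM in replicate 4. The mean was 1.81 ± 0.248 TPM (SD, n = 4), at rank 10537 of 21764 protein-coding genes. Its coefficient of variation was 13.7%, and 87.0% of 1130 genes of like level varied more. Fgl2 lies within Ccdc146 on the opposite strand; the counting kept strands apart, and Ccdc146 itself had 18 counts over the 4 libraries.

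Relatives of Fgl2 were absent or low, and its receptors were hardly represented. The fibrinogen chain genes Fga, Fgb and Fgg had no count, and Fgl1, a liver-secreted relative, had 1 count. Fibcd1, which encodes a receptor with a fibrinogen-like domain, was at 0.742, 1.33, 1.02 and 1.49 TPM in replicates 1 to 4, close to Fgl2 itself but below it in every library. Of 7 genes in the list of Fgl2 receptors and cofactors, 0 were at 1 TPM in every library: Fcgr2b, the inhibitory Fc gamma receptor that binds Fgl2, had 1 count over the 4 libraries and Fcgr3 averaged 0.216 TPM. These receptors are known mainly from B cells and myeloid cells.

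Areg (ENSMUSG00000029378.5, chr5:91139599-91148432, plus strand) had 1, 30, 12 and 9 counts in replicates 1 to 4, or 0.0569, 1.13, 0.335 and 0.737 TPM. Only replicate 2 exceeded 1 TPM, and the single count of replicate 1 has a 95% counting interval of 0.00144 to 0.317 TPM. The interval of replicate 1 lay below those of replicate 2, 0.762 to 1.61 TPM, and replicate 4, 0.337 to 1.4 TPM. Areg did not pass the filter on low counts. With no filter, edgeR's goodness-of-fit test gave it an unadjusted p of 0.357 and an adjusted p of 1.00 over 22353 genes, of which 0.170% were called. The mean of 0.564 TPM fell to 0.376 TPM without replicate 2, so a level below 1 TPM is as much as these counts give.

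Among the 11 EGF family ligands, Areg was not the most abundant. Hbegf, which encodes heparin-binding EGF-like growth factor, was at 58.9, 73.2, 60.2 and 61.4 TPM in replicates 1 to 4 and was the single ligand at 1 TPM or more in every library. Its lowest value lay far above the highest value of Areg. Ereg, Nrg2 and Nrg3 had no count, and Egf averaged 0.575 TPM. The machinery that sheds such ligands was present, with 5 of 6 genes at 1 TPM or more in every library. Adam17, the main sheddase of amphiregulin, was at 39.9 ± 2.19 TPM, Adam10 at 114 ± 12.6 TPM, and Frmd8, a partner of the sheddase complex, averaged 132 TPM (n = 4). Among the receptors, Erbb3 was at 6.67 ± 1.12 TPM while Egfr averaged 0.146 TPM and Erbb4 had no count.

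The sequence upstream of the start was examined for 3 of the 5 genes, matched in the promoter table used here (RefSeq, GRCm38.p6), namely Lif at chr11:4257318-4257567, Fgl2 at chr5:21372423-21372672 and Areg at chr5:91139349-91139598, all on the plus strand. These 250-base windows are shown because most of the listed AP-1 and CREB factors were at 1 TPM or more in every library. Such factors bind the AP-1 site and the cAMP response element. A STAT motif and the TATA box were searched as well. The windows run 5′ to 3′ and end at the base before the RefSeq start; capitals mark each motif found on either strand.
Lif upstream window: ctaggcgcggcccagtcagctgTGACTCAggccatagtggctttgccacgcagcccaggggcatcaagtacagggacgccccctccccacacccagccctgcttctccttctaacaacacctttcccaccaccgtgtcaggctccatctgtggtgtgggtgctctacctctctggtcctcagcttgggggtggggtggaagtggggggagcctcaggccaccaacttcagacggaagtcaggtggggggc
Fgl2 upstream window: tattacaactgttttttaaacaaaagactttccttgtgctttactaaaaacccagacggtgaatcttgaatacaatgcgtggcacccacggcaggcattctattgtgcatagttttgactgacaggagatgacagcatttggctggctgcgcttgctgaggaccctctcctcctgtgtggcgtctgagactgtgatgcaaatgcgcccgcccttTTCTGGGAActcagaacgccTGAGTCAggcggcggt
Areg upstream window: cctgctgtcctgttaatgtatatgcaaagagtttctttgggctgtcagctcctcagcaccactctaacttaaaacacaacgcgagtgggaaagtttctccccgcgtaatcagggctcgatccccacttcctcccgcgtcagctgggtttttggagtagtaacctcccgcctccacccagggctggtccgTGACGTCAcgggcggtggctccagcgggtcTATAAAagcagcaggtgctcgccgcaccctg
The motifs searched on both strands were the AP-1 site TGACTCA, the cAMP response element TGACGTCA, the STAT motif TTCNNNGAA and the TATA box TATAAA. The Lif window held an AP-1 motif at position -228 from the start. The Fgl2 window held a STAT motif at -36 and, on the minus strand, an AP-1 motif at -16, where it reads TGAGTCA. The Areg window held a cAMP response element at -61 and a TATA box at -31. None of these motifs overlapped another. Of the 32841 mouse windows of this length, 4.46% held the AP-1 motif, 1.55% the cAMP response element, 7.02% the STAT motif and 12.4% the TATA box. A match describes letters in these windows and shows no binding. The last bases of the Fgl2 and Lif windows fall inside the first exon of the annotation used for counting, which starts Fgl2 at chr5:21372642 and Lif at chr11:4257557. By that annotation the AP-1 motif of Fgl2 lies wholly within the exon and its STAT motif partly within it.

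AP-1, CREB and other factors, several of which act on the Penk gene in nerve cells, were the list with the largest share present among the 14 pathway lists: 20 of 21 were at 1 TPM or more in every library. Junb was at 1238 ± 74.3 TPM (SD, n = 4), and Jund, Atf4 and Nr4a1 averaged 921, 596 and 562 TPM. Creb1 averaged 21.1 TPM, Crem, a repressor and activator of the same family, 44.5 TPM, and Fos 5.14 TPM. Fosb, at a mean of 0.597 TPM, was the exception. Batf, an AP-1 factor needed by effector Tregs in mice, was at 126.1, 117.6, 115.4 and 117.7 TPM in replicates 1 to 4. It was highest in replicate 1, by far less than Penk.

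Transcripts of the Treg programme known from mouse tissues were present in part. Of 20 such genes, 15 passed 1 TPM in all 4 libraries. They included the transcription factors Irf4 (mean 630 TPM), Gata3 (40.3 TPM), Rora (16.2 TPM) and Pparg (4.47 TPM) and the chemokine receptor Ccr8 (597 TPM). The other 5 were Klrg1 with no count, Il1rl1, the IL-33 receptor, at a mean of 0.117 TPM, Itgae, an integrin chain of tissue lymphocytes, at 0.921 TPM, Prdm1, a regulator of effector Tregs, at 0.397 TPM, and the cytokine gene Il10 at 0.340 TPM. Low Areg stood beside low Il1rl1 and Klrg1, which are markers of tissue Tregs, whereas Irf4, Batf, Gata3 and Ccr8 were abundant.

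Other secreted factors that act on tissue were more abundant than the 5 genes in some cases. Of 26, 17 were at 1 TPM or more in every library. Lgals1, encoding galectin-1, and Mif, a cytokine, were at 2150 ± 212 and 1760 ± 175 TPM. Pdgfb and Tgfb1, growth factors for stromal cells, were at 443 ± 30.3 and 335 ± 10.3 TPM, and the angiogenic factor Vegfa at 63.3 ± 8.07 TPM (SD, n = 4 for each). Il22, an epithelial repair cytokine, had no count, and Igf1 averaged 0.0680 TPM.

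Over the 14 pathway lists, 140 genes other than the 5 were measured. Of these, 74 were at 1 TPM or more in every library, a level that 49.1% of all protein-coding genes met. The filter passed 82, and the edgeR goodness-of-fit test called 0 of them at an adjusted p under 0.05. Over all 13494 genes tested it called 51, or 0.378%, so 0 of 82 does not set these genes apart. In counts simulated for 13494 genes, the test recovered 18% of genes changed 1.5-fold in a library and 78% of those changed 2-fold. Smaller differences could thus pass undetected. The simulated counts followed the fitted dispersion trend, and the changed genes were drawn from those at higher levels. Recovery among genes at lower levels, such as Fgl2, was not examined. Replicate 1 was the highest library for 16 of the 74 genes. A ratio of highest to lowest library at or above the 2.04 of Penk was found for 6 of them: Ccn3, Clcf1, Ctsl, Fos, Il11ra1 and Il24. The share over all genes was not counted for either, so neither count sets the listed genes apart. Of those 6, Ccn3, which encodes a secreted matricellular protein, was highest in replicate 1, at 4.74, 3.36, 2.68 and 2.19 TPM in replicates 1 to 4. Fos was at 4.96, 7.17, 5.62 and 2.79 TPM and was lowest in replicate 4.

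The genes closest to Penk over the 4 libraries were taken by the Euclidean distance between log2 TMM-scaled CPM values, each minus the gene mean, among 10134 genes. They were Gm45738 at a distance of 0.05, Apoe at 0.17, and Trav12-3, Pigl and Snord89 at 0.21. Gm45738, a sense intronic transcript, was at 12.5, 7.07, 6.11 and 5.98 TPM in replicates 1 to 4. Apoe, encoding the lipid carrier apolipoprotein E, was at 18.8, 11.6, 10.02 and 11.2 TPM. Their highest library is that of Penk because they were picked for likeness to it. The levels of Snord89, a short small nucleolar RNA, and of Trav12-3, a T cell receptor V segment from a family of near copies, are uncertain. With 4 libraries the measure is coarse: 52 genes had a Pearson correlation with Penk above 0.99. The closest genes were Sfpq, Myo1c and Nsd1 for Osm, Psen2, Sash3 and Eif3c for Lif, and Parp11, Tubb2b and Gm20939 for Fgl2, all at distances of 0.04 or less.

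**Figure D4:**
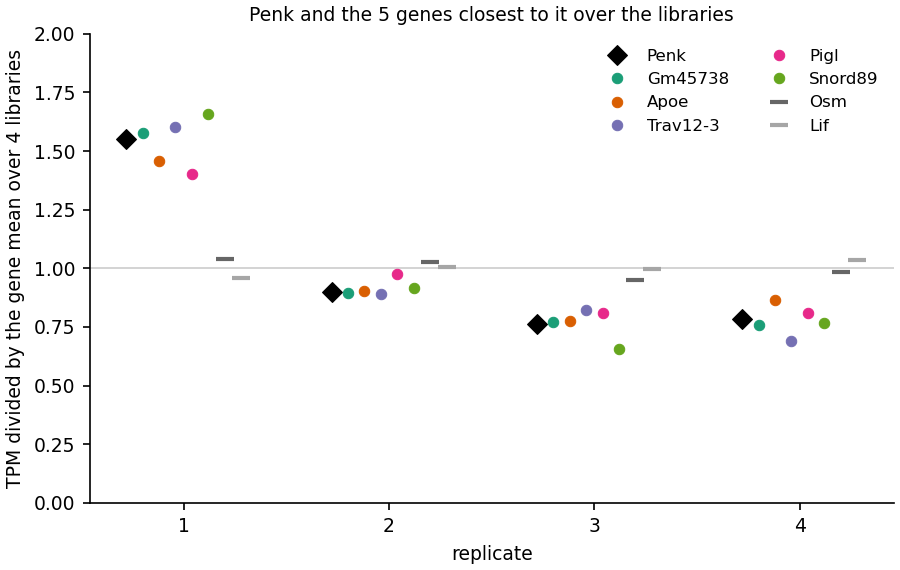
TPM divided by the gene mean over the 4 libraries for Penk, the 5 genes closest to it, and Osm and Lif. The 5 nearest genes, picked for likeness to Penk, share its highest library, replicate 1, while Osm and Lif stay near 1 in all 4 libraries.

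Since Penk, Osm, Areg and Fgl2 are also made by other cells, markers of those cells were read in the same libraries. Of 87 markers of other cell types, 16 were at 1 TPM or more in every library. Neutrophil markers summed to 0.196 to 0.435 TPM, with 7 of 9 at 0. Monocyte and macrophage markers had 3 of 12 at 1 TPM or more, Cd68, Adgre1 and Cx3cr1, and summed to 13.1 to 19.0 TPM, while the defining genes Fcgr1, Mrc1 and Spi1 had no count. Mast cell and basophil markers had Kit alone at 1 TPM or more, and 8 of 11 were at 0; they summed to 5.73 to 8.04 TPM.

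Dendritic cell markers had 3 of 10 at 1 TPM or more, H2-Ab1, Batf3 and Zbtb46, and summed to 71.6 to 114.3 TPM. Most of that sum came from H2-Ab1 and Batf3. The remaining markers of the list stayed under 1 TPM in every library, and Clec9a, Siglech and Cd209a had no count. Batf3 and Zbtb46 averaged 32.6 and 4.26 TPM, and H2-Ab1 was at 33.0, 59.4, 73.8 and 46.2 TPM in replicates 1 to 4. H2-Ab1, a class II antigen presentation gene, was lowest in replicate 1, where Penk was highest. H2-Ab1 was the 1 gene of the marker lists that edgeR's goodness-of-fit test called. Among all 13494 genes tested, 51 were called, or 0.378%. Of the NK and innate lymphoid cell markers, Klrd1 and Eomes averaged 1.62 and 1.96 TPM. B cell markers had Cd79b alone, at 5.37 TPM. Stromal and endothelial markers had Pecam1 alone, at 9.37 TPM, with no count for Col3a1, Dcn or Cdh5 and a sum of 10.4 to 11.5 TPM. Epithelial markers had 3 of 8, Epcam, Krt18 and Cldn4, which averaged 2.85, 1.501 and 3.10 TPM.

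Neuronal and neuroendocrine markers were set beside Penk because such cells express it strongly. They summed to 53.9, 40.9, 48.9 and 33.9 TPM in replicates 1 to 4, of which Gap43 alone gave 52.9, 39.5, 47.1 and 33.3 TPM. Replicate 1 was the highest for Gap43 too, by a smaller margin than for Penk, and in contrast to Penk replicate 3 was the next. Syt1, Scg2, Elavl4 and Th had no count in any library.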

How the data were processed

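RNA of 4 mouse Treg libraries was sequenced. The authors deposited raw counts of read pairs per gene, summarised by featureCounts 1.4.6-p4 after STAR alignment, with strand setting 2 and GENCODE M13 exons, per the file headers; the labels name mm10. Reads that map to several places or overlap several genes were not counted, which lowers genes with close copies. The assay is titled total RNA while the linked library protocol is for poly(A)+ RNA, per the labels, which bears on noncoding RNAs. The exon length deposited in the same files is another value, not a measurement.

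TPM was computed here from counts and those lengths. Symbols came from GENCODE M21 and matched 50376 of 50600 identifiers. The test of variation between libraries used edgeR 4.0.16 under R 4.3.3, with TMM scaling, filterByExpr (minimum count 10), a model with an intercept alone, trended dispersions and the goodness-of-fit of each gene, with Benjamini-Hochberg adjustment over 13494 genes at 0.05. Levels of pairs of genes were compared in log2(TPM + 1) by an exact sign-flip permutation test. Alternatives used DESeq2 1.42.0, other scalings, filters and pseudocounts, and each replicate left out. No pair of libraries agreed within sampling noise: the chi-square per gene was 11.8 to 52.5. Depth set a floor of 3 counts, or 0.0652, 0.0416, 0.0316 and 0.0919 CPM in replicates 1 to 4; floors and 95% intervals cover counting error only. The test was tested on simulated data, where 0.0301% of 13294 unchanged genes were called.

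The genes and lists were chosen with earlier results of these data known. The genes named are the 5 genes, list genes by their level, the nearest genes by distance (5 to Penk, 3 to each other gene at 1 TPM or more in every library, among genes of mean 5 TPM or more), and markers of other cells at 1 TPM or more in every library. Ccdc146, Gm42418, Rn7sk, Malat1, Xist, Eif2s3y and the markers named with no count fall outside that rule and were chosen after their values were seen. A marker of other cell types is not reported here by name.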

Additional observations from a re-analysis of the deposited data

Results flagged for a closer look

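Of 114 genes' levels examined for a library far from the other 3, 8 were picked out; chance picks about 1 in 20. None belongs to Areg, Fgl2, Osm or Lif. Penk was left out of this screen because it was chosen for its spread. Ogfr was highest in replicate 1, at 193.8 TPM, with 158.8 to 164.0 TPM in the other libraries. Replicate 2 was highest for Adam17 at 43.1 TPM (others 38.4 to 39.2 TPM), Rora at 19.0 TPM (others at most 15.6 TPM) and Nr3c1 at 23.2 TPM (others at most 20.2 TPM). It was also highest for Ccr4 at 225.9 TPM (210.1 to 210.9 TPM), Il24 at 3.89 TPM (1.81 to 2.04 TPM) and Atf2 at 22.4 TPM (18.6 to 19.0 TPM). Jun was lowest in replicate 4, at 64.9 TPM, with 84.1 to 86.7 TPM in the others.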

How the results depend on the processing

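The number of genes that varied beyond the dispersion trend was 51 and depended on that trend: a common dispersion called 937. Leaving out a replicate gave 17 to 56 genes, with 17 without replicate 1 and 23 without replicate 3. Other scalings called 51 and 52, the DESeq2 trend 61, a mean CPM of 1 as filter 67 and no filter 38. With replicates left out in turn, 0 of the genes Fgl2, Osm and Lif were called. Over protein-coding genes only, the mean was 86.0 TPM for Osm and 223.5 TPM for Lif, a move larger than their replicate SD. Of the 5 genes nearest to Penk, 0 were shared when likeness was a Pearson correlation and 1 when the minimum mean was 20 TPM. No result changed direction. No paired analysis was possible because the libraries form a single group. With 52 counts in all, depth limits Areg most, and no pair of genes could pass 0.05 with 4 libraries.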
